A study of Mus musculus with 2 samples.

Results

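A set of 10 genes of iron and haem handling were examined in cultured mouse chondrocytes, the cells that make cartilage matrix. They were taken by symbol from the deposited gene table, and all 10 were found among its 13138 genes: Tfrc, Slc11a2, Steap3, Steap4, Fth1, Ftl1, Slc40a1, Cp, Hmox1 and Hpx. The study sequenced RNA from 2 micromass cultures, in which primary chondrocytes are plated at high density ex vivo and form cartilage-like nodules. The first culture was transduced with an adenovirus carrying Cre recombinase and has the genotype label hdac3-knockout. The second received an adenovirus carrying green fluorescent protein (GFP) as control and has the genotype label wild-type. Both are of strain C57Bl/6, and the question set for the series was which genes differ when chondrocytes lack Hdac3, a histone deacetylase of corepressor complexes, so that histone acetylation could be examined at them. Titles and library source give both as RNA, although the source names speak of a K27ac ChIP. The labels give no floxed allele, no age and no number of animals or dishes behind a culture. The genes were chosen by their role in iron handling and with their differences between these 2 libraries in view, so those differences are given as a description. Each group has 1 library, and no difference has a replicate check, a p-value or an error.

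Cells take up iron mainly as ferric iron bound to transferrin, which enters through the transferrin receptor, is reduced inside the endosome by a STEAP reductase and leaves the endosome as ferrous iron through the divalent metal transporter. Iron that is not used is stored in ferritin, a shell of heavy and light subunits, or is exported through ferroportin with the help of a ferroxidase such as ceruloplasmin. Haem is bound outside the cell by hemopexin and is broken down inside it by haem oxygenase, which releases its iron. During inflammation, hemopexin, ceruloplasmin, haptoglobin and ferritin are known to be made in larger amounts in several tissues.

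Several of these mRNAs carry an iron-responsive element (IRE), a short hairpin in the untranslated region that binds the iron regulatory proteins when iron is scarce. Binding near the 5′ end blocks translation, whereas binding near the 3′ end of the Tfrc mRNA protects it from decay. The canonical hairpin was searched for on the transcript strand as the loop CAGTGN between 2 runs of 5 bases that pair throughout, with an unpaired C before the first run. It was found in the untranslated regions of 4 of the 10 members, and of 0.727% of 21866 protein-coding genes. The elements are printed because they act in unlike ways among these 4 members. The RNA level of Tfrc is known to answer to iron, whereas for ferritin and ferroportin the translation does. Each is 27 bases long, 5′ to 3′, read from GENCODE M21 transcripts, with the 6 bases of the loop in capitals. The Fth1 element lies in the 5′ untranslated region at chr19:9982733-9982759 (GRCm38, plus strand), the Ftl1 element in the 5′ region at chr7:45459780-45459806 (minus strand), and the Slc40a1 element in the 5′ region at chr1:45925466-45925492 (minus strand). Tfrc has 4 such elements in its 3′ untranslated region, of which the first, at chr16:32631220-32631246 (plus strand), is shown.
Fth1: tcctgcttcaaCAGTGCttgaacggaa
Ftl1: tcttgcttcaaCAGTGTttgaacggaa
Slc40a1: aacttcagctaCAGTGTtagctaagtt
Tfrc: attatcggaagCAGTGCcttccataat
The Fth1 and Ftl1 elements have 25 of 27 bases in common. No match in the other members says only that this pattern is not in the transcripts read. A hairpin with a further unpaired base would be missed, so Slc11a2 or another member without a match may still carry an IRE.

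Values are log2 normalized counts as the authors deposited them, differences are the Cre-labelled library minus the GFP-labelled library, and folds are folds of these transformed values. The comparison took in the 12809 genes whose mean reached 50 on the count scale, and all 10 members passed this minimum. The depth of the libraries is unknown. Hdac3 had 10.68 in the Cre-labelled library and 10.69 in the GFP-labelled library, a difference of -0.0043, so the knockout label was not borne out by its total level. It covers all exons, so transcripts that lack only deleted exons would still be counted. The libraries are therefore called by their labels. Chondrocyte markers were abundant in both, with Col2a1, the main cartilage collagen, at 19.97 in the Cre-labelled library and 20.35 in the GFP-labelled library.

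Of the 10 members, 8 were higher and 2 lower in the Cre-labelled library, where 49.9% of all genes compared were higher. At least 2-fold higher were 4 members, Steap4, Hpx, Fth1 and Cp, where 0.734% of all genes compared were so. At least 2-fold lower were 0 members, against 0.0703% of all genes. The smaller step of 1.5-fold was passed upward by 5 members and 2.25% of all genes, and downward by 0 members and 0.952% of all genes. The median difference of the members was 0.75, and that of all genes compared was -0.00041. Each functional pair held a member near or past 2-fold and a member that differed by much less, as the plot of the members by library shows.

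**Figure D1:**
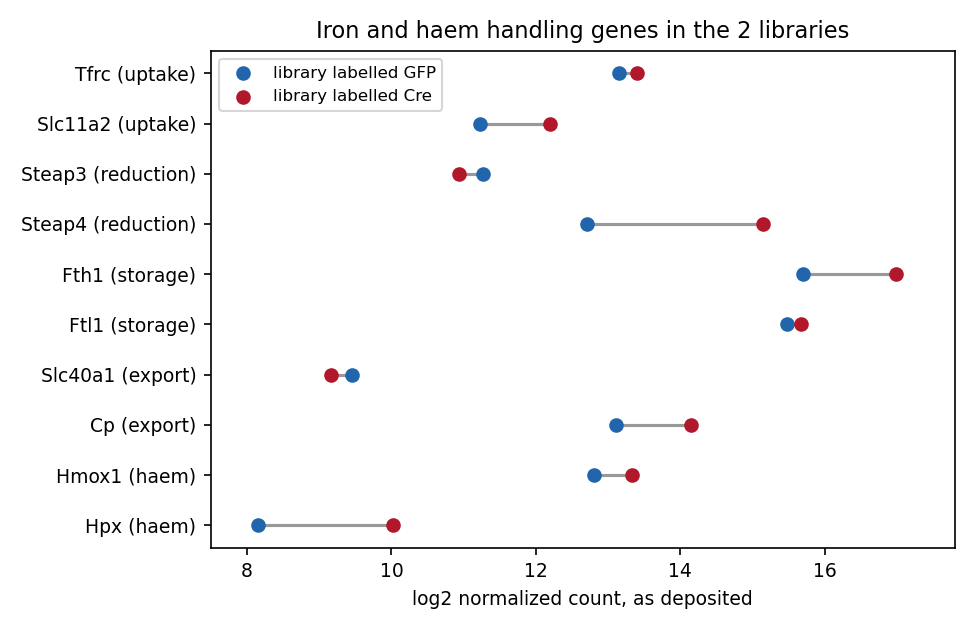
Log2 normalized count (x axis, as deposited) of each of the 10 members (y axis, with its role) in the GFP-labelled library (blue) and the Cre-labelled library (red), 1 library each, joined by a grey line. The longest lines belong to Steap4 (12.71 to 15.14) and Hpx (8.15 to 10.03), and the red point lies left of the blue one for Steap3 and Slc40a1 only.

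Among the uptake genes, the metal transporter differed more than the transferrin receptor. Slc11a2 encodes the divalent metal transporter DMT1, which moves ferrous iron out of the endosome (chromosome 15, 100387898 to 100425072, minus strand, GRCm38). It stood at a log2 normalized count of 12.19 in the Cre-labelled library and 11.22 in the GFP-labelled library, a difference of 0.97 or 1.96-fold. This was just short of 2-fold, whereas Cp, at 1.04, was the member just past it. Tfrc, the transferrin receptor gene (chromosome 16, 32608920 to 32632794, plus strand), had 13.40 in the Cre-labelled library and 13.15 in the GFP-labelled library, a difference of 0.26. It ranked 1045 of 12809 genes from the highest difference, and Slc11a2 ranked 98. Slc11a2 overlaps Gm5475 on the opposite strand, and the library kit does not mark strand, so reads in the shared stretch cannot be told apart.

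The 2 reductase genes lay on opposite sides of 0. Steap4 encodes a membrane metalloreductase that reduces ferric iron and cupric copper and is known to be induced by TNF in fat cells (chromosome 5, 7960457 to 7982213, plus strand). It had 15.14 in the Cre-labelled library and 12.71 in the GFP-labelled library, a 5.38-fold difference, the largest among the members and rank 8 of all genes compared. Steap3 encodes the reductase of the transferrin endosome (chromosome 1, 120190757 to 120272705, minus strand). It had 10.93 in the Cre-labelled library and 11.27 in the GFP-labelled library, a difference of -0.34. Steap3 was the lowest member, at rank 510 from the lowest difference. Per kilobase of transcript on the linear scale, the level of Steap4 was 4.43 times that of Steap3 in the GFP-labelled library and 30.1 times in the Cre-labelled library. The other STEAP genes were close to level, with Steap2 at 0.24 and Steap1 at -0.03.

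Storage genes showed a difference in the heavy subunit that the light subunit did not share in size. Fth1, the ferritin heavy chain gene whose product oxidizes ferrous iron for storage (chromosome 19, 9980598 to 9985098, plus strand), had 16.99 in the Cre-labelled library and 15.70 in the GFP-labelled library. The difference was 1.29, or 2.45-fold, and of 45 genes with a mean within 1 log2 unit of its own only 1 had a larger difference. Ftl1, the light chain gene that favours core formation (chromosome 7, 45457944 to 45459884, minus strand), had 15.67 in the Cre-labelled library and 15.48 in the GFP-labelled library, a difference of 0.20. The ratio of the Fth1 level to the Ftl1 level was thus 2.13 times as large in the Cre-labelled library, whatever length is used for each gene. Per kilobase of the longest principal transcript, that ratio was 1.62 in the Cre-labelled library and 0.759 in the GFP-labelled library. With all annotated exons as the length it was 0.965 and 0.452, so which subunit had the higher level in the Cre-labelled library depends on the length chosen. Their nearly identical IREs, printed above, thus sit in mRNAs that differed by unlike amounts. GENCODE names 2 pseudogenes each for the heavy and the light chain, and ferritin reads that align to such copies may have been split or lost in the counting. Ftl1 also overlaps Gm22133, a miRNA gene on its own strand, and Gm10252 on the opposite strand. Reads in those shared stretches cannot be told apart, which bears on the ratios above.

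The export genes were also split. Cp encodes ceruloplasmin, a copper ferroxidase that oxidizes exported iron so that transferrin can bind it (chromosome 3, 19957054 to 20009145, plus strand). It had 14.15 in the Cre-labelled library and 13.10 in the GFP-labelled library, a 2.06-fold difference. Slc40a1 encodes ferroportin, the iron exporter (chromosome 1, 45908068 to 45926523, minus strand), and had 9.16 in the Cre-labelled library and 9.45 in the GFP-labelled library, a difference of -0.29. The exporter was thus slightly lower where the ferroxidase was higher. Cp overlaps Hps3 on the opposite strand, and Hps3 differed by 0.05.

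For haem, the scavenger differed more than the degrading enzyme. Hpx encodes hemopexin, the plasma protein that binds free haem (chromosome 7, 105591613 to 105600137, minus strand). It had 10.03 in the Cre-labelled library and 8.15 in the GFP-labelled library, a 3.67-fold difference at rank 17. Of 4523 genes with a mean within 1 log2 unit of its own, 0 had a larger difference. Hmox1, the inducible haem oxygenase gene (chromosome 8, 75093621 to 75100589, plus strand), had 13.34 in the Cre-labelled library and 12.80 in the GFP-labelled library. Its difference was 0.54, or 1.45-fold, at rank 335.

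**Figure D2:**
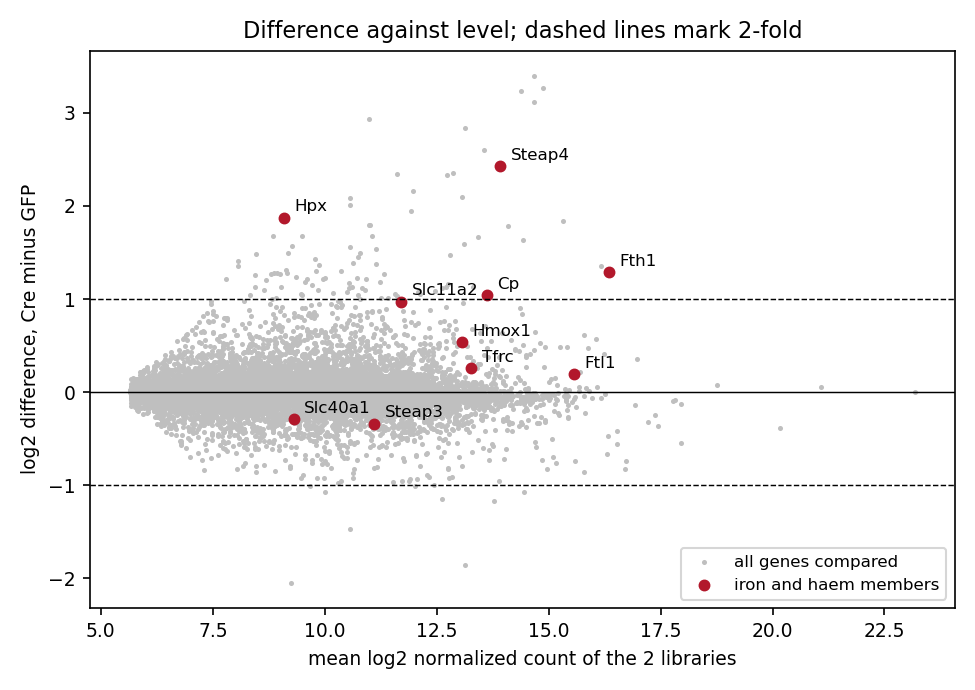
Log2 difference, Cre minus GFP (y axis), against the mean log2 normalized count of the 2 libraries (x axis) for the 12809 genes compared (grey) and the 10 members (red, named), with dashed lines at 2-fold. Steap4, Hpx, Fth1 and Cp lie above the upper line, Slc11a2 lies just under it at 0.97, and the cloud narrows toward low means.

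The plot of difference against level shows how far the scale of differences depends on abundance. The standard deviation of the difference over genes was 0.15 for means from 5.64 to 7, 0.23 for means from 9 to 11 and 0.50 for means from 13 to 15. A given difference therefore stands further from the other genes for Hpx and Slc40a1, with means of 9.09 and 9.30, than for Steap4, Cp or Tfrc. Slc40a1 had 224 of 4748 genes of similar level below it, and Steap3 had 152 of 4192. Ftl1 had 19 of 108 such genes above it, and Tfrc 84 of 908.

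By level per kilobase of transcript, the order of the members changed in places between the libraries. Ftl1 and Fth1 were the top pair in both libraries, followed by Hmox1 in the GFP-labelled library and by Steap4 in the Cre-labelled library. With the longest principal transcript as the length, Steap4 moved from position 5 to 3 and Hpx from position 10 to 8. These moves depend on the length chosen. With all annotated exons as the length, Steap4 (2123 per kilobase) already stood above Tfrc (1469) and Cp (920) in the GFP-labelled library. Hpx (190) likewise stood above Slc40a1 (77.6) there, so both moves were smaller. On the log2 scale per kilobase of the principal transcript, Steap4 stood at 11.05 in the GFP-labelled library, next to Cp (11.09) and Tfrc (10.86). In the Cre-labelled library Steap4 stood at 13.48, Cp at 12.14 and Tfrc at 11.11. Slc40a1 was the least abundant member per kilobase in the Cre-labelled library, at 7.41. With 1 library per group, no spread is known by which neighbours in this order could be separated.

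The genes most like Steap4 were sought among 483 genes with a mean within 1 log2 unit of its own, by the gap between their difference and that of Steap4 over the 2 libraries. Nearest were Aspm (2.60, a gap of 0.17), Mt2 (2.10, a gap of 0.33), Cxcl5 (2.84, a gap of 0.41) and C3 (1.79, a gap of 0.64). Aspm encodes a mitotic spindle protein, Mt2 a metallothionein that binds zinc and copper, Cxcl5 a neutrophil-attracting chemokine and C3 the central complement component. With 2 libraries this measure holds no more than the size of a single difference.

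Genes next to the members on the chromosome lay within 2-fold, as did nearly all genes compared. Neighbours were sought among the 11605 compared genes that matched the annotation by symbol and chromosome. The nearest on a side could be far away, up to 2211 kb for Steap1 beside Steap4. Of 21 measured neighbours, the nearest on each side and any that overlap, 0 differed by 2-fold and 1 by 1.5-fold. Of all genes compared, 0.734% were at least 2-fold higher and 0.0703% lower, and 2.25% and 0.952% passed 1.5-fold. The counts for so few neighbours are near these shares and show nothing particular to them. The differences of the neighbours ranged from -0.45 to 0.62. The highest was Gys1, the muscle glycogen synthase gene 1.32 kb from Ftl1, named after its value was seen. Ftl1, at 0.20, differed by less than Gys1 at 0.62 and by about as much as Bax, its neighbour on the other side, at 0.22. Best1, 0.076 kb from the end of Fth1, differed by 0.27, and Sri, next to Steap4, by -0.05.

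RefSeq promoter windows (GRCm38.p6) were available for 7 of the 10 members, in 13 windows for alternative start sites, and the 250 bases before each start were searched on both strands. The STAT pattern TTCNNNGAA was in the Steap4 window alone, and in 7.02% of 32841 mouse promoter windows. The C/EBP pattern TTGCNNAA was in at least 1 window of 5 members (Steap4, Hpx, Fth1, Cp and Steap3), and in 9.57% of all windows. The antioxidant response pattern TGACNNNGC was found for Hpx alone (10.2% of all windows) and the hypoxia pattern ACGTG for Tfrc alone (16.6%). Members with 2 or 4 windows had more bases searched, so their counts cannot be set against the share per window. The windows of Steap4 and Hpx, the members with the largest differences, are shown from 250 bases before the RefSeq start over 220 bases, with STAT and C/EBP matches in capitals. They lie at chr5:7960222-7960441 (plus strand) and chr7:105600147-105600366 (minus strand). A match is a stretch of letters and does not show that a factor binds there.
Steap4: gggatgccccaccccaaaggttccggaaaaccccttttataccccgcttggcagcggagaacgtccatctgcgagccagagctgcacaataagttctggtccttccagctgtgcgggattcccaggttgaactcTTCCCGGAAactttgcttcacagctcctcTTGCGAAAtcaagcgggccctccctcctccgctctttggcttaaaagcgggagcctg
Hpx: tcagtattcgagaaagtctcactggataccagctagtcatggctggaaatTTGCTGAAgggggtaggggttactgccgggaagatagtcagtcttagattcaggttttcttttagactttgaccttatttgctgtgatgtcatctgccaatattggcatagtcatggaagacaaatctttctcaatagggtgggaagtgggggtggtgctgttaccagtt
In Steap4 the STAT match begins 116 bases and the C/EBP match 87 bases before the start, and they do not overlap. In Hpx the C/EBP match begins 200 bases before the start.

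Beyond the members, 78 other genes of iron and haem handling were listed in 8 groups, and 70 of them were compared. Their median was close to level at 0.02, with 40 above and 30 below 0. None was 2-fold lower, where 0.0703% of all genes compared were so. At least 2-fold higher were 4 of the 70, where 0.734% of all genes compared were so. Those 4 were Lcn2, Slc39a8, Slc39a14 and Hp. Lcn2 and Hp are also known as acute-phase or cytokine-response genes, so these 4 do not amount to a result about iron uptake.

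The list of other uptake genes also takes in genes of transferrin and siderophore binding. It had 8 of 9 values above 0, 3 of them past 2-fold, where 0.734% of all genes compared were 2-fold higher. The median was 0.36, which was 0.26 without the minimum. The mean of the list was 0.74. Lcn2 encodes a lipocalin that binds iron-loaded siderophores. It had 16.24 in the Cre-labelled library and 13.12 in the GFP-labelled library, an 8.68-fold difference. Slc39a8 and Slc39a14 encode ZIP8 and ZIP14, zinc transporters that also import iron not bound to transferrin. Slc39a8 had 10.06 in the Cre-labelled library and 8.49 in the GFP-labelled library, a 2.96-fold difference, and Slc39a14 had 13.88 and 12.75, a 2.19-fold difference. Slc22a17, the gene of a receptor for the Lcn2 protein, was level at 0.0084 and was chosen after its value was seen.

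Reductases other than Steap3 and Steap4 had a median of -0.03 over 5 genes. Cybrd1, the ferric reductase known from the gut surface, had 9.64 in the Cre-labelled library and 10.38 in the GFP-labelled library, which made it 1.66-fold higher in the GFP-labelled library. It was the only gene of the 70 past 1.5-fold in that direction, where 0.952% of all genes compared were so. Frrs1, another ferric reductase gene, differed by 0.20.

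Storage and export genes beside the members were level. Ncoa4, the receptor that delivers ferritin to autophagy, differed by 0.02, and the iron chaperone genes Pcbp1 and Pcbp2 by -0.06 and -0.00064. Among 3 further export genes, App differed by -0.23, Hephl1 by -0.10 and Heph, the ceruloplasmin-like ferroxidase gene hephaestin, by 0.05.

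Genes that sense iron had a median of 0.01 over 7 genes, with 0 past 1.5-fold. Of all 12809 genes compared, 12399 lay within 1.5-fold, so 0 in a short list is near the share of all genes. Fbxl5, which encodes the iron-sensing ligase subunit that removes iron regulatory protein 2, differed by 0.39, Hfe by 0.35 and Bmp6 by -0.31. The genes of the iron regulatory proteins themselves, named after their values were seen, differed by -0.14 for Aco1 and 0.01 for Ireb2. Neither value speaks to the binding activity of these proteins, which is set after translation.

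Genes of mitochondrial iron use and haem synthesis were level in RNA. That was the usual case here, since 12399 of all 12809 genes compared lay within 1.5-fold. Of 21 genes of mitochondrial iron import and iron-sulfur cluster assembly, 10 lay above and 11 below 0, with a median of -0.0094 and 0 past 1.5-fold. The largest differences were 0.36 for Slc25a37, the mitochondrial iron importer mitoferrin 1, -0.23 for Nfu1 and -0.20 for Hspa9. Haem synthesis had a median of 0.03 over 11 genes, with 0 past 1.5-fold. Uros and Cpox, which encode enzymes of the pathway, differed by -0.34 and -0.24, and Alas1, its first enzyme outside red cell precursors, by 0.17.

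Other genes of haem transport and breakdown lay above 0 for 8 of 11, with a median of 0.14. Hp encodes haptoglobin, which binds free haemoglobin. It had 15.25 in the Cre-labelled library and 13.62 in the GFP-labelled library, a 3.10-fold difference, so that the genes of both plasma scavengers, Hp and Hpx, were more than 3-fold higher there. Blvrb, a biliverdin reductase gene, and Slc48a1, the lysosomal haem exporter gene, each differed by 0.52. The copper list was included because ceruloplasmin needs copper and STEAP proteins reduce it. It was level, with a median of 0.05 over 7 genes, 0 of them past 1.5-fold. Of all 12809 genes compared, 12399 also lay within 1.5-fold. The largest differences in the copper list were 0.35 for Slc31a2, -0.13 for Commd1 and 0.10 for Atox1.

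**Figure D3:**
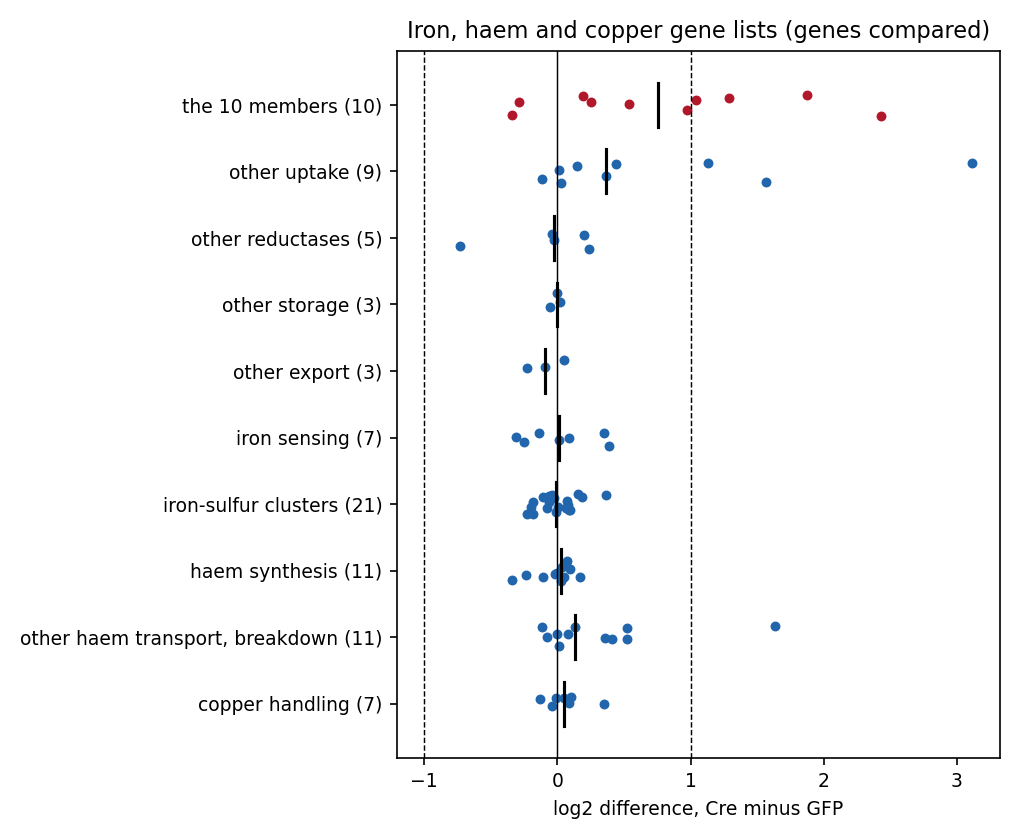
Log2 difference, Cre minus GFP (x axis), of each gene compared in the members (red) and in 9 lists of other iron, haem and copper genes (blue), with the number of genes in brackets, the median as a black bar and dashed lines at 2-fold. The medians are 0.75 for the members and 0.36 for the other uptake genes, and lie between -0.10 and 0.14 for the remaining lists.

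Several members are also known targets of NRF2, of the hypoxia-inducible factors (HIF) or of inflammatory cytokines. Lists of such genes, together with some of their regulators, were therefore set beside them. NRF2 is the transcription factor that induces antioxidant genes, among them Hmox1, Fth1 and Ftl1. All 12 genes of its list lay above 0, with a median of 0.45. The cystine importer gene Slc7a11 was 2.02-fold and the glutathione reductase gene Gsr 2.01-fold higher in the Cre-labelled library, and the sulfiredoxin gene Srxn1 1.66-fold. Hmox1, at 0.54, lay above the median of that list and below these 3 genes, Fth1 above its highest value of 1.02 and Ftl1, at 0.20, below its median.

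In the HIF list 11 of 12 genes lay above 0, and the median was 0.67. Egln3, an oxygen-sensing hydroxylase gene, was 2.28-fold and the carbonic anhydrase gene Car9 2.27-fold higher in the Cre-labelled library. Egln1, the main oxygen sensor of the family, was 2.25-fold higher in the GFP-labelled library. Tfrc, Hmox1 and Cp, which HIF is known to induce, differed by 0.26, 0.54 and 1.04.

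Acute-phase and cytokine-response genes had the highest median of these lists, 1.13 over 12 genes, all above 0 and 7 at least 2-fold higher. Of all genes compared, 0.734% were at least 2-fold higher. The acute-phase gene Saa3 was 10.5-fold higher in the Cre-labelled library, the lipopolysaccharide-binding protein gene Lbp 5.13-fold and C3 3.45-fold. The regulators Nfkbiz (3.21-fold), Cebpd (2.73-fold), Nfkbia (2.25-fold) and Socs3 (2.15-fold) were also higher. Steap4, Hpx and Cp, at 5.38-fold, 3.67-fold and 2.06-fold, lay within the range of this list. That range, from 0.065 to 3.40, is wide enough to hold all 8 members above 0. It therefore does not set these 3 apart from the others. These lists were drawn up with earlier results of these data known, so their direction is not independent evidence.

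Iron recycling is a main task of macrophages, so markers of macrophages and other cell types were read in the same libraries. Of 11 macrophage markers compared, of 14 listed, 7 lay above 0, and the median was 0.22. Of these, 2 were past 2-fold, where 0.734% of all genes compared were 2-fold higher. The summed level of the macrophage markers on the linear scale was 20495 in the Cre-labelled library and 15754 in the GFP-labelled library, 1.30 times as high. Emr1, a macrophage surface gene, was 2.11-fold and Cd14, a monocyte receptor gene, 2.06-fold higher, whereas the growth factor receptor gene Csf1r differed by 0.08 and the mannose receptor gene Mrc1 by -0.73. All 4 neutrophil markers compared, of 8 listed, lay above 0, with a summed level 1.73 times as high and Camp at 2.65-fold.

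For osteoclasts the summed level was 1.15 times as high over 3 markers, of which the phosphatase gene Acp5 was 2.06-fold higher, Ctsk differed by 0.10 and Atp6v0d2 by -0.04. The 5 adipocyte markers had a summed level 1.09 times as high but a median of -0.09, with 4 below 0 and the abundant Fabp4 at 0.24. For the 4 endothelial markers the summed level was 1.05 times as high and the median 0.07. Chondrocyte markers were lower, with all 9 below 0, a median of -0.56 and a summed level 0.739 times that in the GFP-labelled library. The 11 erythroid and 8 hepatocyte markers listed were not analysed here. The part of other cell types in the differences of the members was not tested, and in bulk RNA a change in the number of cells of a type and a change in the RNA per cell cannot be told apart.

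**Figure D4:**
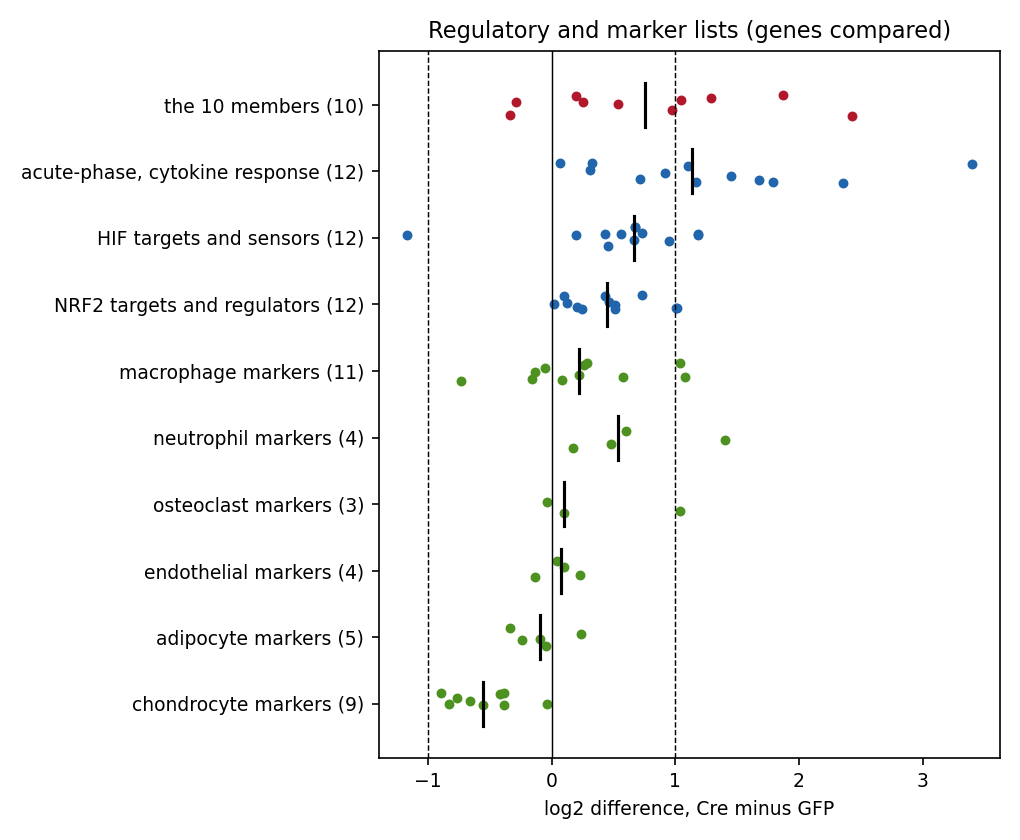
Log2 difference, Cre minus GFP (x axis), of each gene compared. Shown are the members (red), 3 lists of targets and their regulators (blue) and 6 lists of cell type markers (green). The number of genes is in brackets, the median is a black bar and dashed lines mark 2-fold. Medians run from 1.13 for the acute-phase list to -0.56 for the chondrocyte markers.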

How the data were processed

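Per the labels' protocols, TRIzol was used to isolate RNA, and sequencing libraries followed Illumina's TruSeq v2 mRNA procedure. Tools listed are TopHat2 2.0.6, HTSeq and bcl2fastq 1.8.4, with build mm10, per the submitters' processing notes. The annotation, the strand setting and the treatment of multiply aligned reads were not given in the sources used here. The authors deposited log2 values of normalized counts, 1 column per library, for 13138 genes. The transform is not described. A regularized log, which would understate differences of less abundant genes, is inferred from the heading rLogFC and from the narrow differences at low means. The values hold no read counts, so depth is unknown and no counting interval can be given. The deposited difference is GFP minus Cre and was turned.

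Differences, ranks and counts past 2-fold were computed with Python 3.11.15, pandas 2.3.3 and numpy 2.4.6. The 2-fold rule alone was tried on simulated counts with set differences larger than 2-fold. That trial did not cover the ranks, the gene lists, the sequence searches or the levels per kilobase. Positions are from GENCODE M21 (GRCm38, the assembly of mm10), and promoters from RefSeq. Level per kilobase is the linear value over the length of the longest principal transcript. Members and lists were chosen with earlier results of these data known. Named were all members, the largest 3 differences and any gene past 2-fold of each pathway list, and the 4 genes nearest to Steap4. Other named genes are marked or serve as markers or neighbours. Alternatives were other thresholds, minimums, scalings and the mean.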

Additional observations from a re-analysis of the deposited data

How the results depend on the processing

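The 3 scalings were equal totals, a median of 0 and equal totals without Rn45s and Lars2 (the last chosen after seeing the data). Under them every value moved alike, by at most 0.015, and all 10 member differences kept their sign. The member nearest to 0 was Ftl1 at 0.20, so shifts this small could change no sign. At 1.5-fold, 5 members, 288 of all genes higher and 122 lower passed, and at 4-fold 1 member (Steap4), 15 higher and 1 lower. The median of the other uptake genes was 0.74 as a mean and 0.26 without a minimum. Means were 0.32 for other haem transport and breakdown, 0.55 for HIF and 1.27 for the acute-phase list. At a minimum 10 times higher, medians were 0.089 for other reductases, -0.23 for other export (1 gene) and 1.31 for the acute-phase list. Of 36 alternatives for list medians, 28 moved by less than 0.1. Pseudocounts were not run because the values are already logarithms, and leaving out a library would leave no comparison. No paired analysis was possible because there is only 1 library per group.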
